A study of Mus musculus with 8 samples.

Results

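The regions described here are the restriction fragments of mouse chromosome 11 that lie far from the Ikzf1 promoter in circularized chromosome conformation capture with sequencing (4C-seq). They were chosen by position alone. A fragment was taken if its midpoint lay more than 10 Mb from the bait at position 11583520 (mm9), whatever its read count. Of the 295446 DpnII fragments listed for the chromosome, 248387 (84.1%) met this rule. They ran from midpoint 21583597 to midpoint 121843276, all on the telomeric side of the bait. On the other side, 0 of the listed fragments lay more than 10 Mb from the bait.

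The study examined an enhancer of Ikzf1, IkE120, and measured contacts of the Ikzf1 promoter by 4C-seq in 6 libraries, with 2 further libraries of H3K27ac ChIP-seq from P5424 cells. DN3 was a library of primary thymocytes (CD4-negative, CD8-negative, CD44-low, CD25-positive) sorted from wild-type C57/Bl6 mice aged 4 to 5 weeks. ES was a library of J1 mouse embryonic stem cells, a cell type that does not express Ikzf1, moved off feeder cells before fixation. The other 4 libraries came from P5424, a mouse line that resembles T-cell precursors, either wild-type (wt) or with a homozygous CRISPR/Cas9 deletion of IkE120 (ΔIkE120). Each genotype was unstimulated or treated for 6 h with 20 µg/ml PMA plus 0.5 µg/ml ionomycin, and the file headers name the unstimulated libraries DMSO. The ΔIkE120 line was a single clone. Each condition had 1 library, so a difference between 2 libraries has no replicate check, and no p-value is given. In P5424, genotype could be compared with and without stimulation, and stimulation in both genotypes. Per the study's methods, SDS treatment of the nuclei was milder and cooler for ES than for DN3 and P5424, so cell type and preparation cannot be told apart in any comparison of ES with the others.

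In 4C-seq, a chromosome fixed in its folded state is cut and religated, and the pieces joined to the bait are read out, so that a read on a fragment records that it lay near the bait in some cell. Contacts become rare over long distances, and those that remain are known to depend on chromosome compartments, in which gene-dense, active chromatin tends to meet other active chromatin and gene-poor, silent chromatin meets its own kind. Ikzf1 encodes Ikaros, a zinc finger transcription factor needed for T- and B-cell development. The comparisons below ask how the far contacts of its promoter are spread over the chromosome in cells of the T lineage and in ES cells.

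The ΔIkE120 label was checked first. The DpnII fragment that lies wholly between the cuts of the guide RNA pair, chr11:11464326-11464553, held 193 reads in DN3, 1274 in ES, 1922 in unstimulated wt P5424, 366 in stimulated wt P5424, and 0 in each ΔIkE120 library. The libraries held from 1756688 reads on chromosome 11 (stimulated wt P5424) to 3943018 (unstimulated ΔIkE120).

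Few far fragments were covered, that is, held at least 1 read. The share was 1.65% in DN3 (95% exact Clopper-Pearson interval 1.60 to 1.70), 1.5% in ES (1.45 to 1.55), 1.18% in unstimulated wt P5424 (1.14 to 1.22), 1.10% in stimulated wt P5424 (1.06 to 1.14), 1.25% in unstimulated ΔIkE120 (1.21 to 1.30) and 1.47% in stimulated ΔIkE120 (1.42 to 1.51). DN3 was highest and stimulated wt P5424 lowest. With at least 10 reads per fragment both ends of this order changed. Stimulated ΔIkE120 was then highest (1.05%, DN3 1.02%) and unstimulated wt P5424 lowest (0.734%, stimulated wt 0.789%). The intervals here and below cover counting error only, because reads without molecular identifiers can be PCR copies of one ligation. A covered far fragment held a median of 19 reads in DN3, 25 in ES, 19 in unstimulated wt P5424, 46 in stimulated wt P5424, 46 in unstimulated ΔIkE120 and 42 in stimulated ΔIkE120. For this reason covered fragments rather than reads are compared, except where shares or numbers of reads are named.

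The far fragments held a minor share of each library's reads. Of reads on chromosome 11 outside 15 kb of the bait, 24% were far in DN3, 17.7% in ES, 20.1% in unstimulated and 29.6% in stimulated wt P5424, and 19.6% in unstimulated and 25.9% in stimulated ΔIkE120. ES was lowest, and in both genotypes the stimulated library was above the unstimulated one. In unstimulated wt P5424, the 20 fragments with the most reads held 23.0% of all far reads, against 7.08 to 9.98% in the other libraries. Nearer fragments, 1 to 10 Mb from the bait, were covered more often, at 4.93% in DN3, 9.03% in ES, 5.10% and 3.68% in unstimulated and stimulated wt P5424, and 4.98% and 4.82% in unstimulated and stimulated ΔIkE120. There ES stood above all other libraries, whereas among the far fragments it lay within their range.

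Just outside the distance limit, at 9 to 10 Mb, 6.39% of 2503 fragments were covered in DN3, 5.67% in ES and 5.27 to 6.07% in the P5424 libraries. Just inside it, at 10 to 11 Mb, 2.29% of 2532 fragments were covered in DN3, 5.37% in ES, 3.67% and 2.21% in unstimulated and stimulated wt P5424, and 3.16% and 2.53% in unstimulated and stimulated ΔIkE120. ES was nearly level across the limit and the other 5 libraries dropped.

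Coverage was lower at the far end of the chromosome than near the limit in every library, by different amounts. Between 10 and 20 Mb from the bait, 2.51% of fragments were covered in DN3 (2.32 to 2.71), 3.89% in ES (3.66 to 4.13), 2.42% and 1.90% in unstimulated and stimulated wt P5424, and 2.30% and 2.50% in unstimulated and stimulated ΔIkE120. The fall did not begin at once in all libraries. At 20 to 30 and 30 to 40 Mb, 2.31% and 2.67% were covered in DN3 and 3.50% and 2.92% in ES. Unstimulated wt P5424 had 2.20% and 1.83%, unstimulated ΔIkE120 2.25% and 2.14%, and stimulated ΔIkE120 2.66% and 2.63%. DN3 thus had its own highest share at 30 to 40 Mb, where ES was still above it. Stimulated wt P5424 was slightly above its first stretch at 20 to 30 Mb (interval 1.79 to 2.15) and had 1.73% at 30 to 40 Mb. Beyond 90 Mb the shares were 0.904% in DN3, 0.406% in ES, 0.307% and 0.305% in unstimulated and stimulated wt P5424, and 0.297% and 0.394% in unstimulated and stimulated ΔIkE120. The ratio of the nearest to the farthest stretch was thus 2.78 in DN3, 9.57 in ES and 6.23 to 7.87 in the P5424 libraries. ES was highest close to the limit, and DN3 was highest at the far end of the chromosome. Of all covered far fragments, 68.6% lay 10 to 40 Mb from the bait in ES, 45.2% in DN3 and 50.6 to 54.5% in the P5424 libraries.

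To describe the fragments along the chromosome, they were counted in 101 bins of 1 Mb. Relative coverage is the covered share of a bin divided by the covered share of all far fragments in the same library, so that differences in library yield cancel. Because coverage falls with distance, local relative coverage was added after the data had been seen. It divides the covered share of a bin by that of all bins within 10 Mb to either side. Near either end of the counted stretch fewer bins lie on the outer side, so part of the fall with distance remains there.

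The clearest difference was in how even the profile was. In ES the contacts declined with limited variation between neighbouring bins, while in the 5 lymphoid libraries (DN3 and P5424) well covered and nearly empty stretches alternated. Over the 101 bins, the standard deviation of local relative coverage was 0.627 in DN3 and 0.272 in ES. It was 0.587 and 0.542 in unstimulated and stimulated wt P5424, and 0.588 and 0.549 in unstimulated and stimulated ΔIkE120. Counting error alone would give 0.233 in ES and 0.171 to 0.241 in the lymphoid libraries, so over all bins the ES value was little above its counting error and the lymphoid values were well above theirs. In the 34 bins nearest the bait, from 21 to 55 Mb, where counts were highest, 11 bins in each lymphoid library fell below 0.5 in local relative coverage, and 0 did in ES. The standard deviation in these bins was 0.235 in ES, with 0.118 from counting error. In the lymphoid libraries it was 0.656 to 0.768, with 0.130 to 0.152 from counting error. ES thus also varied beyond its counting error there. The lowest bin of ES was at 0.617 and its highest at 1.5, whereas DN3 ranged from 0.105 to 2.69.

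Across the 101 bins, local relative coverage in DN3 had a Pearson correlation of 0.758 to 0.833 with the P5424 libraries and 0.291 with ES. The P5424 libraries had correlations of 0.827 to 0.869 with each other and 0.192 to 0.278 with ES. In the 34 nearest bins, where counts were highest, the correlations with ES were higher, at 0.454 for DN3 and 0.533 to 0.602 for P5424. Those between DN3 and P5424 were 0.769 to 0.853. Relative coverage over all 101 bins, which keeps the fall with distance, gave 0.829 to 0.875 for DN3 with P5424. With ES it gave 0.554 for DN3 and 0.678 to 0.734 for P5424. These values are descriptions: neighbouring bins are not independent, and the bins share base composition, gene content and DpnII site density in all libraries. The part of counting error in the low correlations of ES in local relative coverage over all bins was not tested.

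The longest run of neighbouring bins in which all 5 lymphoid libraries fell below ES by the fold given below had 7 bins, from 36 to 43 Mb. In P5424 it was not the stretch of lowest coverage, since coverage over 90 Mb from the bait was lower still. In DN3 the run (0.512%) was covered less than the fragments at that distance (0.904%). It holds 11 protein-coding gene starts, among them Odz2, a teneurin of neurons, and Gabra6 and Gabrb2, which encode subunits of the GABA-A receptor. Of these starts 4 carry the H3K27ac mark described below, and all 4 are in the bin from 40 to 41 Mb (Mat2b, Hmmr, Nudcd2 and Ccng1), where local relative coverage was 0.430 in DN3, 0.996 in ES and 0.263 to 0.486 in P5424. Of the 16813 fragments of the run, 0.512% were covered in DN3 (0.409 to 0.631), 2.89% in ES (2.64 to 3.16), 0.529% and 0.607% in unstimulated and stimulated wt P5424, and 0.512% and 0.767% in unstimulated and stimulated ΔIkE120. All 5 lymphoid libraries were far below ES here. In the 3 bins before the run, 3.23% were covered in DN3, 4.29% in ES and 3.29 to 4.55% in the P5424 libraries. In the 3 bins after it, 3.74% were covered in DN3, 3.58% in ES and 1.86 to 3.23% in the P5424 libraries. ES was thus also lower within the run than on either side of it, by less than the lymphoid libraries were. The lymphoid libraries regained their contacts beyond the run, at a greater distance from the bait.

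A shorter run of 4 bins, from 25 to 29 Mb, had the same form. It holds 8 gene starts, including Fancl of the Fanconi anaemia pathway and the kinase gene Vrk2. Of its 10387 fragments, 1.14% were covered in DN3 (0.941 to 1.36), 3.49% in ES (3.14 to 3.86), 0.924% and 0.674% in unstimulated and stimulated wt P5424, and 0.963% and 1.12% in unstimulated and stimulated ΔIkE120. The 3 bins before it had 4.35% in DN3, 4.32% in ES and 3.14 to 4.00% in the P5424 libraries, so DN3 and ES were level outside the run and apart within it. Fancl and Vrk2 lie in the bin from 26 to 27 Mb, the best covered of the run in DN3, where relative coverage was 1.36 in DN3, 2.76 in ES and 1.00 to 1.24 in P5424. With local relative coverage (0.764 in DN3, 1.03 in ES) this bin no longer passed the fold, so the run depends on the measure. The bounds of both runs were set after their values had been seen.

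By the fixed rule, a bin was counted as lymphoid-low when all 5 lymphoid libraries had at most the ES relative coverage divided by 1.5. This held for 13 of 101 bins (12.9%), which were the 11 bins of these runs and the bins from 56 to 57 Mb and 66 to 67 Mb. The last one holds Myh3 and Myh2 of the skeletal muscle myosin cluster. These 13 bins had a median of 1.00 protein-coding start and a median GC content of 38.5%, against 11 starts and 44.2% over all bins, and 7 of them had 0 or 1 start, a class of 13 bins in all. Together, 0.682% of their fragments were covered in DN3, 2.84% in ES and 0.610 to 0.852% in the P5424 libraries. All 13 lay between 25 and 67 Mb, so distance and gene content move together in this list, and the part of distance was not tested. With local relative coverage the count was 17 bins (16.8%), between 25 and 105 Mb. These had a median of 2.00 starts and a median GC content of 39.0%, and 8 of them had 0 or 1 start. They hold 113 starts, against 27 in the 13 bins.

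The largest such difference was in the bin from 42 to 43 Mb with Gabra6 and Gabrb2. It had 6 covered fragments of 2451 in DN3, 73 in ES, 11 in each wt P5424 library, 14 in unstimulated ΔIkE120 and 17 in stimulated ΔIkE120. Relative coverage was 0.148 in DN3, 1.99 in ES, 0.380 and 0.408 in unstimulated and stimulated wt P5424, and 0.457 and 0.473 in unstimulated and stimulated ΔIkE120. ES was the only library above its own far average, and the closest lymphoid library was at 0.238 times ES. In the bin of Odz2, from 37 to 38 Mb, and the neighbouring bin from 36 to 37 Mb, which has 0 protein-coding starts, the closest lymphoid library was at 0.274 and 0.291 times ES.

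In the opposite direction, 15 of 101 bins (14.9%) had at least 1.5 times the ES relative coverage in all 5 lymphoid libraries. They had a median of 24 protein-coding starts and a median GC content of 46.7%, and none had 0 or 1 start (0 of 15). All lay between 54 and 114 Mb, where ES coverage was already low, so distance and gene content move together in this list. With local relative coverage 8 bins (7.92%) passed, starting at 31, 32, 33, 54, 68, 70, 82 and 113 Mb, and their median number of starts was 16.5. Of these 8, the bins starting at 31, 32 and 33 Mb are not among the 15. The part of distance in the count of 15 was not tested.

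The largest differences in this direction were in 3 bins. In the bin from 70 to 71 Mb, with 39 gene starts, among them Bcl6b and the monocarboxylate transporter gene Slc16a11, relative coverage was 1.01 in DN3, 0.284 in ES, 1.18 and 1.58 in unstimulated and stimulated wt P5424, and 1.39 and 1.71 in unstimulated and stimulated ΔIkE120. In the bin from 68 to 69 Mb, which holds Pik3r5 and Pik3r6, encoding regulatory subunits of a phosphoinositide 3-kinase of leukocytes, it was 1.72 in DN3, 0.509 in ES, 2.38 and 1.82 in wt P5424, and 2.50 and 2.00 in ΔIkE120. In the bin from 54 to 55 Mb, which holds the cytokine genes Csf2 and Il3, it was 3.02 in DN3, 0.742 in ES, 2.86 and 2.77 in wt P5424, and 2.76 and 2.16 in ΔIkE120. All lymphoid libraries lay above ES in each, and the closest of them was at 3.55, 3.39 and 2.92 times ES. The fold was smaller with local relative coverage, which was 0.532, 0.928 and 0.617 in ES. The lymphoid means were then 1.52, 2.19 and 1.79. The last bin had 121 covered fragments of 2429 in DN3 and 27 in ES.

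Taken by level alone, the highest mean relative coverage of the lymphoid libraries was found in the bins from 23 to 24 Mb, 32 to 33 Mb and 22 to 23 Mb. The bin from 23 to 24 Mb holds Rel, which encodes the NF-kappaB subunit c-Rel, and Xpo1, the nuclear export receptor, and had relative coverage of 3.29 in DN3, 3.11 in ES, 3.95 and 4.17 in unstimulated and stimulated wt P5424, and 4.34 and 3.87 in unstimulated and stimulated ΔIkE120. The bin from 32 to 33 Mb holds the interleukin 9 receptor gene Il9r and the alpha-globin cluster and stood at 3.70 in DN3, 2.67 in ES, 3.61 and 3.84 in wt P5424, and 3.65 and 4.08 in ΔIkE120. Both were high in every library, ES included. In ES the highest bins were those starting at 21, 22 and 35 Mb (3.45, 3.28 and 3.16).

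The lowest mean relative coverage of the lymphoid libraries was found far from the bait, in the bins from 116 to 117 Mb, 111 to 112 Mb and 91 to 92 Mb. The bin from 116 to 117 Mb has 31 gene starts, among them Mrpl38, and had 5 covered fragments in DN3, 9 in ES, 3 and 6 in unstimulated and stimulated wt P5424, and 3 and 4 in unstimulated and stimulated ΔIkE120. The bin from 91 to 92 Mb has 1 start, Kif2b, and had 3 in DN3, 10 in ES, 6 and 7 in wt P5424, and 4 and 5 in ΔIkE120. A gene-rich and a gene-poor bin were thus similarly sparse at these distances. The lowest bins of ES started at 112 Mb, where Sox9 lies, and at 118 and 101 Mb, with 4, 4 and 6 covered fragments.

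How far the contacts favoured gene-dense bins varied with the distance and with the limits of the gene classes. Over all 101 bins, the covered share of the 33 bins with the most protein-coding starts (18 to 79) was divided by that of the 34 bins with the fewest (0 to 6). This ratio was 1.06 in DN3 (0.978 to 1.16), 0.334 in ES (0.304 to 0.367), 0.675 and 0.961 in unstimulated and stimulated wt P5424, and 0.896 and 0.908 in unstimulated and stimulated ΔIkE120. ES was lowest. The ratio leaves out the middle class, which was the best covered in all 5 lymphoid libraries, at 2.33% in DN3 against 1.26% in the gene-poor and 1.34% in the gene-rich class, and 1.44 to 1.95% in P5424 against 0.943 to 1.28% and 0.782 to 1.16%. In ES the classes had 2.10% (poor), 1.70% (middle) and 0.701% (rich). However, the gene-poor bins lay at a median of 34.4 Mb from the bait and the gene-rich bins at 71.9 Mb, so the gene-rich class was also the more distant one.

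Within the 34 bins nearest the bait, a split added after the data had been seen, the libraries separated. The ratio of the 11 bins with 10 or more starts to the 12 bins with 4 or fewer was 4.12 in DN3 (3.59 to 4.73), 0.889 in ES (0.810 to 0.977), 2.24 (1.97 to 2.53) and 2.76 (2.41 to 3.17) in unstimulated and stimulated wt P5424, and 2.71 (2.37 to 3.09) and 2.73 (2.42 to 3.08) in unstimulated and stimulated ΔIkE120. All 5 lymphoid libraries covered gene-rich bins more, DN3 the most, and ES covered them slightly less. Farther away the classes hold more genes, so their ratios do not measure the same contrast. In the 34 middle bins, from 55 to 89 Mb, bins with 23 or more starts were set against bins with 10 or fewer, and the ratio was 0.981 in DN3, 0.651 in ES and 0.889 to 1.22 in P5424. In the 33 farthest bins, 26 or more starts against 8 or fewer gave 0.830 in DN3 (0.696 to 0.990), 1.04 in ES and 0.852 to 1.38 in P5424, the highest being unstimulated ΔIkE120 (1.06 to 1.80).

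The separation near the bait was mostly in the gene-poor bins. In the 9 of these 34 bins with 0 or 1 start, 0.886% of fragments were covered in DN3, 3.15% in ES, 0.994% and 0.778% in unstimulated and stimulated wt P5424, and 0.812% and 0.915% in unstimulated and stimulated ΔIkE120. In the 11 bins with 10 or more starts, 3.68% were covered in DN3, 2.89% in ES, 2.80% and 2.69% in wt P5424, and 2.89% and 3.50% in ΔIkE120. ES had about the same coverage in both classes. The 14 bins with 2 to 9 starts lay at 2.65% in DN3, 3.55% in ES and 1.91 to 2.81% in P5424, so in the lymphoid libraries most of the step was between bins with almost no genes and bins with a few.

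Gene number could not be separated from other features of the bins. Over the 101 bins it had a Spearman correlation of 0.722 with GC content and 0.878 with the number of starts that carry an H3K27ac peak within 1 kb in wt P5424 cells, a mark of active promoters. Of the 1524 far protein-coding genes, 1463 (96.0%) could be matched to a gene of the build of the peaks, and 803 of these (54.9%) carried the mark. In the 34 nearest bins, local relative coverage in DN3 had Spearman correlations of 0.701 with gene starts, 0.728 with marked starts and 0.695 with GC content, and the P5424 libraries had 0.553 to 0.687, 0.554 to 0.681 and 0.682 to 0.743. In ES these were 0.168, 0.117 and 0.220. The features gave similar values in the lymphoid libraries here, and which of them the contacts follow was not tested. Farther away the correlations were mostly weak. In the middle bins they were 0.0833, 0.139 and 0.158 in DN3, 0.00550 to 0.248, 0.0165 to 0.318 and 0.164 to 0.346 in P5424, and -0.395, -0.473 and -0.555 in ES. In the farthest bins they were 0.0692, 0.122 and -0.0251 in DN3, 0.0535 to 0.409, 0.0970 to 0.401 and 0.0819 to 0.420 in P5424, and 0.0787, 0.237 and 0.136 in ES.

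With the same class limits at each distance, a split also added after the data had been seen, the classes with 0 or 1 start, 2 to 9 and 10 or more held 1, 9 and 24 of the middle bins. There 0.193%, 1.22% and 1.60% of fragments were covered in DN3 and 1.54%, 1.03% and 0.763% in ES. The P5424 libraries had 0.231 to 0.617%, 0.853 to 1.08% and 0.989 to 1.45%. In the 33 farthest bins the classes held 3, 9 and 21 bins, with 0.258%, 1.25% and 0.871% in DN3 and 0.401%, 0.418% and 0.396% in ES. Unstimulated wt P5424 had 0.301%, 0.486% and 0.355% there, stimulated wt 0.329%, 0.400% and 0.377%, unstimulated ΔIkE120 0.157%, 0.387% and 0.408%, and stimulated ΔIkE120 0.200%, 0.589% and 0.468%. In the farthest bins the emptiest class was thus well below the others in DN3 and ΔIkE120, while the classes differed less in wt P5424, and ES was level. The emptiest class rests on 1 bin in the middle stretch and on 11 to 28 covered fragments a library in the farthest.

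Bins grouped by marked starts gave much the same picture. In the 12 nearest bins with 0 marked starts, 0.771% of fragments were covered in DN3, 3.10% in ES and 0.706 to 0.936% in P5424. In the 11 nearest bins with 5 or more marked starts, 3.73% were covered in DN3, 2.92% in ES and 2.61 to 3.52% in P5424. The 11 nearest bins with 1 to 4 had 3.21% in DN3, 3.68% in ES and 2.38 to 3.29% in P5424. Most of the step in the lymphoid libraries thus lay between 0 and a few marked starts. In the 2 middle bins with 0 marked starts, 0.572% were covered in DN3, 1.09% in ES and 0.267 to 0.553% in P5424. The 23 middle bins with 5 or more had 1.65% in DN3, 0.742% in ES and 0.982 to 1.49% in P5424, so ES ran the other way there. The 9 middle bins with 1 to 4 had 1.19% in DN3, 1.09% in ES and 0.926 to 1.12% in P5424. In the 33 farthest bins, the 4 bins with 0 marked starts had 0.327% in DN3, 0.338% in ES and 0.190 to 0.295% in P5424, and the 21 bins with 5 or more had 0.988% in DN3, 0.410% in ES and 0.387 to 0.508% in P5424. The 8 farthest bins with 1 to 4 had 1.03% in DN3, 0.414% in ES and 0.359 to 0.539% in P5424. At this distance the step from 0 to 5 or more marked starts was widest in DN3 and smallest in ES, and its lower side rests on 4 bins. The mark was measured in P5424 cells only, so its state in DN3 and ES cells is not known from these data.

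Genes with a role in lymphocytes were followed as a list of 19, which fell into 12 bins. The mean local relative coverage of the lymphoid libraries was above that of ES in 9 of these 12 bins (75.0%). This compared with 52 of the 94 bins with a start (55.3%) and 52 of all 101 bins (51.5%). By gene this was 16 of 19 (84.2%), compared with 898 of all 1524 far protein-coding starts (58.9%), but genes in 1 bin share 1 measurement. By the fixed rule, 6 of the 19 (31.6%) and 425 of the 1524 (27.9%) lay in lymphoid-high bins, and with local relative coverage 0 of the 19 and 136 of the 1524 (8.92%) did. Counted by gene, the list was thus close to all far starts by the rule. By bin, 3 of its 12 (25.0%) were lymphoid-high, compared with 15 of the 94 bins with a start (16.0%). With local relative coverage 0 of the 12 were, compared with 8 of the 94 (8.51%). With 12 bins, the list cannot be placed above or below all far starts. The bin that holds Ikzf3, which encodes the Ikaros relative Aiolos, together with Rara and Top2a, had local relative coverage of 1.43 in DN3, 0.963 in ES, 1.38 and 1.32 in unstimulated and stimulated wt P5424, and 1.35 and 1.54 in unstimulated and stimulated ΔIkE120. The bin of Stat3, Stat5a and Stat5b, which encode cytokine-activated transcription factors, stood at 1.18 in DN3, 0.886 in ES, 1.36 and 1.22 in wt P5424, and 2.19 and 1.48 in ΔIkE120. All 5 lymphoid libraries lay above ES in both bins, in the latter with unstimulated ΔIkE120 well above the other 4.

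Some genes of T cells lay in bins that were covered less than their surroundings. Tcf7, which encodes the T-lineage factor TCF-1, lay in a bin with local relative coverage of 0.878 in DN3, 0.761 in ES and 0.897 to 0.943 in P5424. Its relative coverage was 1.33 in DN3, 1.03 in ES and 1.38 to 1.45 in P5424, above the far average of each library. The type 2 cytokine genes Il4, Il5 and Il13 share a bin with Irf1 with local relative coverage of 0.856 in DN3, 0.799 in ES and 0.798 to 1.06 in P5424, and relative coverage of 1.33 in DN3, 1.04 in ES and 1.25 to 1.68 in P5424. Tbx21, which encodes T-bet, Cd7 and Socs3 were the 3 genes of the list at which the lymphoid mean was below ES. The bin of Tbx21 also holds all 10 genes of the Hoxb cluster, and it had 9 covered fragments in DN3, 9 in ES, 3 and 15 in unstimulated and stimulated wt P5424, and 7 and 11 in unstimulated and stimulated ΔIkE120.

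By the share of genes with a lymphoid mean above ES, the other lists were closer to all far starts. Of 6 broadly expressed genes, 3 had a lymphoid mean above ES. Of 140 genes listed as silent or restricted to other tissues, 89 did (63.6%). This list was mixed, and 4 of its genes carried the H3K27ac mark at their start in wt P5424. Of the 140, 27 (19.3%) lay in bins where all 5 lymphoid libraries had at most ES divided by 1.5 in local relative coverage. This compared with 113 of the 1524 far starts (7.41%) and 0 of the lymphocyte list. By bin it was 5 of the 24 that hold the 140 genes (20.8%). This compared with 12 of the 94 bins with a start (12.8%) and 17 of all 101 (16.8%). Of the 27 genes, 22 were olfactory receptors in 1 bin. By the fixed rule 5 of the 140 genes (3.57%) lay in lymphoid-low bins, compared with 27 of the 1524 far starts (1.77%). In lymphoid-high bins there were 47 of the 140 (33.6%), compared with 425 of the 1524 (27.9%). By bin, 4 of the 24 (16.7%) were lymphoid-low and 3 (12.5%) lymphoid-high, compared with 13 (12.9%) and 15 (14.9%) of all 101. Among the 94 bins with a start, 8 (8.51%) were lymphoid-low and 15 (16.0%) lymphoid-high. The 79 far olfactory receptor genes, which are expressed in sensory neurons of the nose, lay mainly in 3 groups. The group from 49 to 50 Mb, with 15 receptors, had local relative coverage of 1.57 in DN3, 1.21 in ES and 1.23 to 1.63 in P5424, and the group from 58 to 59 Mb, with 20, had 0.870 in DN3, 0.740 in ES and 1.00 to 1.30 in P5424. The group from 73 to 74 Mb, with 22 receptors among 30 starts, of which 2 were marked, had 0.412 in DN3, 1.15 in ES and 0.315 to 0.523 in P5424. Of these groups, only the last was low in all lymphoid libraries against its surroundings.

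The myosin heavy chain cluster of skeletal muscle crosses a bin limit. Its bin from 66 to 67 Mb stood at 0.277 in DN3, 1.20 in ES and 0.213 to 0.429 in P5424, and the bin from 67 to 68 Mb at 1.13 in DN3, 1.32 in ES and 0.757 to 1.21 in P5424. The lymphoid libraries were low in the first of these and near their surroundings in the next. The keratin cluster from 99 to 100 Mb, with 21 keratin genes among 79 starts, of which 2 were marked, was at 0.747 in DN3, 0.835 in ES and 0.895 to 1.25 in P5424.

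Bins where P5424 and DN3 differed were counted in the same way. DN3 on its own had at least 1.5 times the ES relative coverage in 40 of 101 bins (39.6%) and at most ES divided by 1.5 in 22 (21.8%). In 7 of 101 bins (6.93%) all 4 P5424 libraries had at least 1.5 times the DN3 relative coverage, and in 14 (13.9%) they had at most DN3 divided by 1.5. All of the 14 lay beyond 81 Mb, where DN3 coverage fell less, and with local relative coverage 3 bins (2.97%) were low and 8 (7.92%) high. The bins named next were chosen after their values were seen. From 47 to 48 Mb, a bin whose 1 protein-coding start is the sarcoglycan gene Sgcd, 8 fragments were covered in DN3, 68 in ES, 36 and 33 in unstimulated and stimulated wt P5424, and 29 and 41 in unstimulated and stimulated ΔIkE120. From 35 to 36 Mb, with Pank3, Fbll1, Rars and Wwc1, the counts were 39 in DN3, 110 in ES, 117 and 84 in wt P5424, and 100 and 112 in ΔIkE120. Relative coverage in the former was 0.206 in DN3 and 0.985 to 1.30 in P5424, and in the latter 1.02 in DN3 and 3.29 to 4.27 in P5424. DN3 was thus well below its far average in the Sgcd bin and near it in the other. From 109 to 110 Mb, a bin with Gna13 and Rgs9, the counts were 44 in DN3, 10 in ES, 9 and 11 in wt P5424, and 11 and 15 in ΔIkE120. Its local relative coverage was 1.94 in DN3, 1.06 in ES and 1.07 to 1.44 in P5424, so against its surroundings it was not among the 3 low bins. From 104 to 105 Mb, a bin with Mapt and Cdc27 that is among them, the counts were 29 in DN3, 18 in ES, 4 and 5 in wt P5424, and 3 and 8 in ΔIkE120. Local relative coverage there was 1.08 in DN3, 1.80 in ES and 0.287 to 0.605 in P5424, so the P5424 libraries were low and DN3 was near its surroundings.

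Deletion of IkE120 and stimulation left few shared differences. Both ΔIkE120 libraries were at least 1.5 times above both wt libraries in 1 of 101 bins (0.990%), from 77 to 78 Mb, with 6 and 8 covered fragments in unstimulated and stimulated wt and 14 and 20 in ΔIkE120. They were below by that fold in 1 bin (0.990%), from 92 to 93 Mb, with 12 and 9 in wt and 4 and 4 in ΔIkE120. Both stimulated libraries were above both unstimulated ones in 2 bins (1.98%), starting at 41 and 121 Mb, with 1 to 9 covered fragments in an unstimulated and 4 to 17 in a stimulated library, and below in 1 (0.990%), the partly counted bin from 21 to 22 Mb. The bins other than the last rest on small counts. In the last, with 1083 fragments, 40 were covered in unstimulated and 18 in stimulated wt, and 33 and 15 in ΔIkE120. Its relative coverage was 3.13 and 1.51 in wt (2.24 to 4.26 and 0.897 to 2.39) and 2.44 and 0.945 in ΔIkE120 (1.68 to 3.42 and 0.529 to 1.56), so the intervals overlap slightly in wt and not in ΔIkE120.

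Single pairs passed the fold more often, in 14 bins above (13.9%) and 15 below (14.9%) for ΔIkE120 against wt without stimulation, and in 9 above (8.91%) and 14 below (13.9%) with it. For stimulated against unstimulated cells the counts were 18 above (17.8%) and 11 below (10.9%) in wt, and 16 above (15.8%) and 6 below (5.94%) in ΔIkE120. In the 38 to 47 bins with at least 20 covered fragments in both libraries of a pair, the standard deviation of the log2 ratio was 0.28 for genotype without stimulation and 0.30 with it, and 0.26 and 0.35 for stimulation in wt and ΔIkE120, where counting error alone gives 0.30 to 0.31. For DN3 against ES it was 0.95, with a counting error of 0.29, and for unstimulated wt P5424 against DN3 it was 0.56, with a counting error of 0.30. In these bins, the spread of the ratios was no wider than counting error in 3 of the 4 pairs of P5424 libraries, and in the fourth, stimulation in ΔIkE120, it was slightly wider. Bins with fewer covered fragments, among them the bin from 21 to 22 Mb for stimulation, are outside this comparison.

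Single fragments were seldom shared. Of 18218 far fragments covered in any library, 1793 (9.84%) were covered in 2 or more, 19 in 4 or more, and 1 in all 6. Of the fragments covered in DN3, 3.05% were covered in ES and 3.39 to 4.56% in a P5424 library, where 1.5% and 1.10 to 1.47% of all far fragments were. Of those covered in unstimulated wt P5424, 6.58% were covered in stimulated wt P5424, and of those covered in unstimulated ΔIkE120, 7.34% were covered in stimulated ΔIkE120. The shared fragments of the same genotype differed in depth. The 193 of the wt pair had a median of 12 reads in the unstimulated and 114 in the stimulated library, and the 228 of the ΔIkE120 pair had 29 and 96. Of the 100 fragments with the most reads in stimulated wt P5424, 20 were covered in unstimulated wt P5424, and 9 in the reverse direction. In the ΔIkE120 pair 18 and 17 were, and in pairs of libraries of different genotype or cell type 0 to 9 were. The source of these shared fragments was not tested.

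Covered fragments also lay next to each other more often than their share. The next fragment along the chromosome was covered for 4.34% of covered fragments in DN3, 3.12% in ES, 3.48% and 2.64% in unstimulated and stimulated wt P5424, and 3.99% and 4.34% in unstimulated and stimulated ΔIkE120. Each value was over the covered share of all far fragments in its library, which includes the uneven spread over bins. Longer fragments were covered more often, at 2.15% of those with 400 bases or more against 1.05% of those under 100 bases in DN3, and 1.81% against 0.953% in ES. Fragments with a site for Csp6I, the enzyme used to trim the ligated circles, were covered in 1.97% of cases in DN3 and 1.70% in ES, and those without one in 1.39% and 1.34%. Both features ranked fragments alike in DN3 and ES, and the GC content of the fragment itself did not. From the lowest to the highest GC class, with mean GC of 37.0%, 44.6% and 52.5%, coverage went from 1.46% through 1.88% to 1.62% in DN3 and from 1.89% through 1.55% to 1.06% in ES.

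The far fragments covered in the most libraries are given with their first 30 bases on the forward strand of mm9, which begin at a DpnII site. A 4C read starts at a DpnII end of a fragment. The counts are per fragment, so they do not show which end was read. The capitals mark the DpnII site.
fragment 41687775: GATCcattcctacctccttgtacaaagctc
fragment 40536889: GATCaggcacagtgtaagcaagagctcctc
fragment 23560301: GATCcttgtttatatcacatacatcatgtc
A further fragment covered in 5 libraries, with midpoint 92823973, held fewer reads (3 in DN3, 11 in ES, 7 and 1 in unstimulated and stimulated wt P5424, and 6 and 0 in unstimulated and stimulated ΔIkE120), and its bases are not given. The first 24 bases of each fragment listed above had 1 match on chromosome 11. The fragment with midpoint 41687775 (chr11:41687756-41687800) lies outside genes, within the gene-poor run that was low in lymphoid cells. It was the 1 fragment covered in all libraries, with 12 reads in DN3, 19 in ES, 31 and 10 in unstimulated and stimulated wt P5424, and 145 and 12 in unstimulated and stimulated ΔIkE120. The fragment with midpoint 40536889 (chr11:40536736-40537047) lies inside Hmmr, which encodes a hyaluronan receptor, and held 237 reads in DN3, 621 in ES, 186 and 0 in wt P5424, and 633 and 835 in ΔIkE120. The fragment with midpoint 23560301 (chr11:23559857-23560750) lies inside Pex13, a peroxisome biogenesis gene, and held 5 reads in DN3, 178 in ES, 0 and 6 in wt P5424, and 8 and 8 in ΔIkE120.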

How the data were processed

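For each 4C library the authors deposited a file of raw read counts over the DpnII fragments of chromosome 11. Per the study's methods, reads were trimmed of the bait sequence with Sabre, mapped to mm9 with Bowtie (version 1.0.0 in the submitters' processing notes) and processed with 4See. Each listed midpoint was matched to the DpnII sites of the mm9 chromosome (295446 matches). The H3K27ac peaks of wt P5424 cells, deposited on GRCm38 with fold enrichment, score and −log10 values, were used for their positions only (Bowtie2 2.3.4.3, MACS2 2.1.1 in the notes). They were joined by gene symbol, with older symbols and gene ends from RefSeq and strands from GENCODE M1, and no coordinates were converted. Peaks of ΔIkE120 cells were not used here.

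The fragments and gene lists were chosen with earlier results of these data known. Named bins were the 3 highest and 3 lowest by lymphoid mean or ES relative coverage, up to 3 with the largest difference in either direction, and those of the listed genes; named fragments were among those covered in the most libraries. Some genes that the rule names are not reported here. Alternatives were at least 10 reads, thinning to equal totals, fragments of at least 100 bases with a Csp6I site, bins of 2 Mb, genes with H3K27ac, the middle GC class and reads capped at the percentile 99; the splits by distance and local relative coverage were added after seeing the data. Python 3.11.15, numpy 2.4.6, pandas 2.3.3 and scipy 1.17.1 were used. The bin counts were tested on simulated data, and no comparison of them with chance is reported here.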

Additional observations from a re-analysis of the deposited data

Results flagged for a closer look

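In 1 of the 61 bins with at least 10 covered fragments in all 4 P5424 libraries, stimulation moved relative coverage by the fold of 1.5 in opposite directions in the 2 genotypes. This was the bin from 28 to 29 Mb, which holds Efemp1 and Ccdc85a. The ratio of stimulated to unstimulated relative coverage was 0.537 in wt, from 22 and 11 covered fragments, and 1.59 in ΔIkE120, from 22 and 41. The difference between the genotypes was not tested, since each condition had 1 library.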

How the results depend on the processing

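Values are given in the order DN3, ES, unstimulated and stimulated wt P5424, unstimulated and stimulated ΔIkE120. With at least 10 reads per fragment the covered share was 1.02, 0.940, 0.734, 0.789, 0.935 and 1.05%, and the far share of reads 23.8, 17.6, 19.9, 29.5, 19.6 and 25.8%. With Csp6I fragments of at least 100 bases these were 2.02, 1.75, 1.45, 1.36, 1.43 and 1.67%, and 23.2, 16.8, 21.4, 28.2, 20.0 and 26.3%. Thinned to equal totals, the covered share was 1.36% in ES and 1.17% in unstimulated ΔIkE120. The gene-rich to gene-poor ratio was 0.844, 0.295, 0.608, 0.785, 0.733 and 0.747 in bins of 2 Mb. Counting only genes with H3K27ac it was 0.290 in ES, 0.604 and 0.848 in wt and 0.782 and 0.794 in ΔIkE120. In the middle GC class it was 0.973 in DN3, 0.503 in ES, 0.865 in stimulated wt and 0.741 in unstimulated ΔIkE120. It was 0.303 in ES with at least 10 reads and 0.603 in unstimulated wt with Csp6I fragments. By distance, it was 4.12, 0.889, 2.24, 2.76, 2.71 and 2.73 in the nearest bins, where all P5424 values and DN3 exceeded 1. It was 0.651, 0.889, 1.22, 1.22 and 1.14 in the middle bins (ES, wt, ΔIkE120), and 0.830, 1.04, 0.852, 1.38 and 1.01 in the farthest (DN3, ES, unstimulated wt, ΔIkE120). Lymphoid-high bins numbered 8 by local relative coverage. Of the 51 bins of 2 Mb, 13 were lymphoid-high (25.5%) and 6 lymphoid-low (11.8%). Under the other alternatives there were 15 to 22 and 12 to 17 of 101. The cause of the other shifts was not tested. No paired analysis was possible because the groups share only 1 replicate number and the results come from no test; genotype and stimulation in P5424 were compared across both states of the other. Depth limits single bins most at the far end, where some held 1 to 4 covered fragments. The P5424 libraries come from 1 line and are not replicates of a lymphoid state.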
